A study of Mus musculus with 18 samples.

Results

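The ERV1 predicted piRNAs are the 40459 entries of the deposited catalogue of predicted piRNAs that carry the repeat class ERV1 and a number up to 605324, the last number that the lists of all 18 libraries cover. They make up 6.68% of the 605324 entries up to that number. No measured level entered this choice. Of the members, 40253 had at least 1 read in a library and 206 had none.

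The libraries hold small RNA from sperm (the design text speaks of collected semen) of ICR mice, an outbred strain. In F0, the males labelled NHS received ammonia (NH3) and hydrogen sulphide (H2S) for 5 weeks, starting at an age of 3 weeks, and the group labelled Con is their control. F0 males were paired with normal females, and their sons (F1), which received no treatment, were mated at 8 weeks and gave the F2 males, also untreated, so that NHS in F1 and F2 names a line of descent and not an exposure. The study asked whether an effect of the gases passes through the male line. Each of the 6 groups (Con and NHS in F0, F1 and F2) has 3 libraries, and nothing in the labels says that they come from separate animals, so the p-values here measure only how far these libraries spread, and that spread may be technical.

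ERV1 is a class of endogenous retroviruses, remnants of retroviral infections of the germ line that are flanked by long terminal repeats. PIWI proteins of the male germ line bind piRNAs, which guide the silencing of such elements. Mature mouse piRNAs are longer than microRNAs and most begin with uridine, read as T in a sequenced library. A retrovirus starts reverse transcription from the 3′ end of a host transfer RNA (tRNA), which pairs with a primer binding site beside the first long terminal repeat, and a mature tRNA ends in CCA. A retroviral primer binding site is therefore complementary to a tRNA end, and a short read that matches such a site can also match the tRNA.

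The most abundant members were short and fell into sets of overlapping sequences, here called families. Of the forms of families A and B printed below, most end in CCA and the others stop 1 to 3 bases before that end. Among all their members, 19 of 71 in family A and 16 of 66 in family B end in CCA. The families are shown first because they held most ERV1 reads. Capitals mark a terminal CCA, and the sequences run 5′ to 3′. Family A is the set of members that share the 12 bases ccggccaatgca:
novel_pir83653: cgtttcccggccaatgcaCCA
novel_pir83648: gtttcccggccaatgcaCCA
novel_pir83654: ttcccggccaatgcaCCA
novel_pir83652: tcccggccaatgcaCCA
novel_pir83664: cgtttcccggccaatgcacc
novel_pir83672: cgtttcccggccaatgcac
novel_pir83678: cgtttcccggccaatgca

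Family B shares ccggccaacgca, and its leading member differs from that of family A by the single substitution T15C, counted from 1 at the 5′ end of novel_pir83653:
novel_pir249668: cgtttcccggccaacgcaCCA
novel_pir249670: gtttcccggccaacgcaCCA
novel_pir221212: ttcccggccaacgcaCCA
novel_pir249675: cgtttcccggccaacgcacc

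The leading members of 4 further families, named C to F here, show the same kind of end with other bases before it. The 12 bases that define a family are those before the terminal CCA of its leading member:
novel_pir438819 (family C): catctcgctggggcctCCA
novel_pir140299 (family D): atctcggtggaacctCCA
novel_pir291762 (family E): aaatcccggacgagcccCCA
novel_pir242365 (family F): aatctcggtgggacctCCA

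From textbook knowledge, the bases before CCA in families A, E and D are those at the 3′ ends of tRNAs for glycine, proline and glutamine. No tRNA sequence was aligned to the members here, so how many of these reads came from tRNA and how many from ERV1 transcripts was not tested. The catalogue gives 1 place per sequence. A strand named beside a member is that of the repeat copy and not that of the RNA. In a check on transcripts, 523 placed ERV1 members ran on the strand of their repeat and 614 on the opposite strand. In genome build mm10, novel_pir83653 and the other listed forms of family A were placed at an ERV1 copy at chr10:74719672-74719795 (minus strand) and novel_pir249668 at chr11:57559807-57559926 (minus strand), both outside annotated genes (GENCODE M21). The leading members of families C, D, E and F were placed at chr17:22137066-22137515 (no annotated gene), chr10:78125234-78125799 (intron of the noncoding gene Gm47922), chr12:77381043-77381198 (intron of Fut8, which encodes a fucosyltransferase) and chr11:6006408-6007343 (intron of Camk2b, which encodes a subunit of a calcium-dependent kinase). The families and the search for CCA were chosen after the sequences and levels were seen, so their values are given as description, without a test.

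The 6 families hold 281 of the 40459 members (0.695%). They took between 39.6% and 97.0% of a library's ERV1 reads, with a median of 75.1%. Families A and B alone, 137 members, took 31.2% to 94.0%. Reads ending in CCA were 59.2% ± 15.7 (SD, n = 18) of ERV1 reads, against 1.41% ± 0.683 of the reads of ERVK, another class of endogenous retrovirus, and 1.57% ± 0.81 of the reads of LINE-1, a retrotransposon without long terminal repeats. Every library had a higher share in ERV1 than in either class. By distinct sequence, only 2.72% ± 0.642 of the ERV1 sequences of a library ended in CCA, so this end marks a few sequences with many reads.

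ERV1 reads as a whole ranged from 577.0 to 15260 TPM, where TPM is the number of reads per 1000000 reads of the library, with no length term. In F0 Con the 3 libraries had 577.0, 1831 and 794.5 TPM, and in F0 NHS they had 2588, 3147 and 3294 TPM. The F0 groups did not overlap. F1 Con had 955.4, 864.3 and 606.1 TPM and F1 NHS had 1542, 4195 and 727.4 TPM. F2 Con had 4213, 15260 and 1586 TPM and F2 NHS had 7448, 1968 and 745.4 TPM. In F1 and F2 the groups overlapped, and the highest library of all was F2 Con replicate 2.

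**Figure D1:**
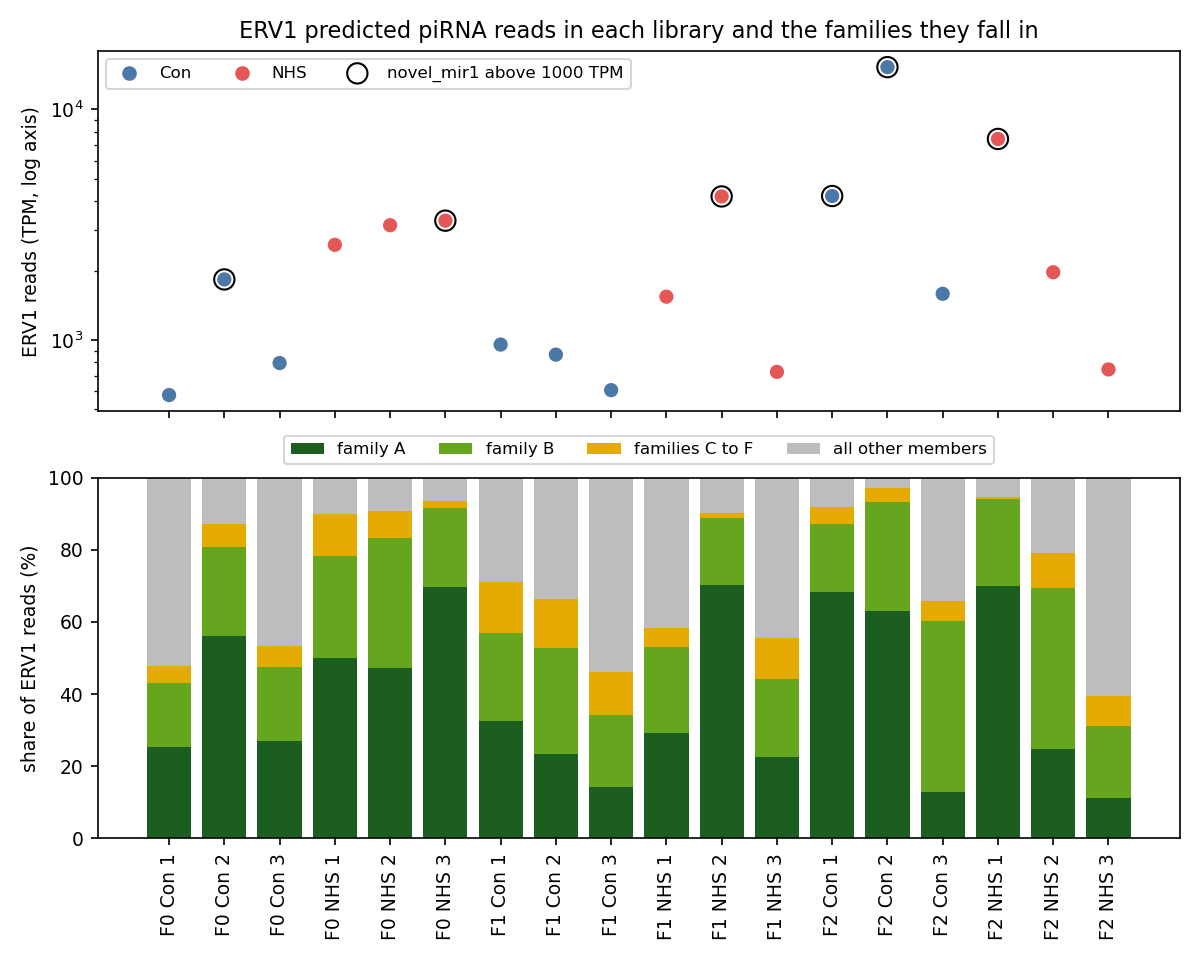
Upper panel: ERV1 reads in each of the 18 libraries in TPM on a log axis, with Con in blue, NHS in red and a ring around the 6 libraries with more than 1000 TPM of novel_mir1. Lower panel: share of ERV1 reads in family A, family B, families C to F and all other members, as stacked bars. Families A and B take 31.2% to 94.0% of the reads.

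The mean ERV1 level was 3010 ± 373 TPM in F0 NHS and 1068 ± 670 TPM in F0 Con (SD, n = 3 each, two-sided exact permutation p = 0.1, the smallest p that 3 libraries against 3 allow). Over the 3 generations the mean difference, NHS minus Con, was -114.9 TPM (exact permutation within generations, 8000 relabellings, p = 0.963, adjusted p = 0.963 over 6 measures). A permutation test over the 6 groups gave p = 0.226 (adjusted p = 0.523). The share of ERV1 among predicted piRNA reads was 34.1% ± 9.08 in F0 NHS and 13.5% ± 5.31 in F0 Con, without overlap (n = 3 each, exact p = 0.1). In F1 this share was 21.9% ± 21.3 in NHS and 12.7% ± 3.89 in Con, and in F2 it was 29.8% ± 25.1 in NHS and 42.3% ± 23.3 in Con. The pooled difference in share was 5.73 points (exact permutation p = 0.491, adjusted p = 0.963).

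Within F0, 3 of the 6 families did not overlap between the groups, whereas the summed level of the members outside the families did. Of the 937 single sequences tested below, 4.7% lay without overlap and higher in F0 NHS, and 7 of the 96 ERV1 ones did. A family is a sum of many forms, and no such share was computed for sums. The shares of single sequences given here and for F2 are therefore not a like measure for the families. Family A had 146.4 to 1030 TPM in F0 Con and 1293 to 2299 TPM in F0 NHS, and family B had 102.5 to 451.9 and 720.7 to 1135 TPM. Family E had 5.69 to 8.5 TPM in F0 Con and 11.9 to 42.3 TPM in F0 NHS. Families C, D and F overlapped. All members outside the 6 families together had 301.5 ± 68.1 TPM in F0 Con and 254.3 ± 38 TPM in F0 NHS (SD, n = 3 each), and these values overlapped. In F2, family C was the one without overlap, at 63.4 to 229.2 TPM in Con and 10.1 to 20.6 TPM in NHS. Of all sequences tested, 6.4% lay without overlap and lower in F2 NHS, and 8 of the 96 ERV1 ones did.

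The composition of the families split the libraries in a way that the groups do not follow. In 6 libraries (F0 Con replicate 2, F0 NHS replicate 3, F1 NHS replicate 2, F2 Con replicates 1 and 2, F2 NHS replicate 1) the 21-base form novel_pir83653 stood 19.3 to 43.1 times above the 20-base form novel_pir83648, which lacks only the first base. In the other 12 the ratio was 0.21 to 1.25. The same pair in family B, novel_pir249668 over novel_pir249670, had a ratio of 2.96 to 6.29 in the 6 libraries and 0.469 to 2.2 in the 12. The 6 libraries are those with 2378 to 18720 TPM of novel_mir1, a predicted microRNA that lies within the tRNA gene n-TAcgc10 at chr13:23438703-23438767 (minus strand), against 42.93 to 621.1 TPM in the 12. The Rfam tRNA entry moved the other way, at 43.17 to 659.2 TPM in the 5 of these 6 libraries that list it and 3542 to 20402 TPM in 8 of the 12. These sets hold 3 Con and 3 NHS libraries against 6 and 6. Within F0, the ERV1 level stood at 577.0 and 794.5 TPM in Con against 2588 and 3147 TPM in NHS among the 12 libraries, and at 1831 against 3294 TPM among the 6, where each group has 1 library. The part of the sets in the ERV1 values, those of F0 included, was not tested.

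**Figure D2:**
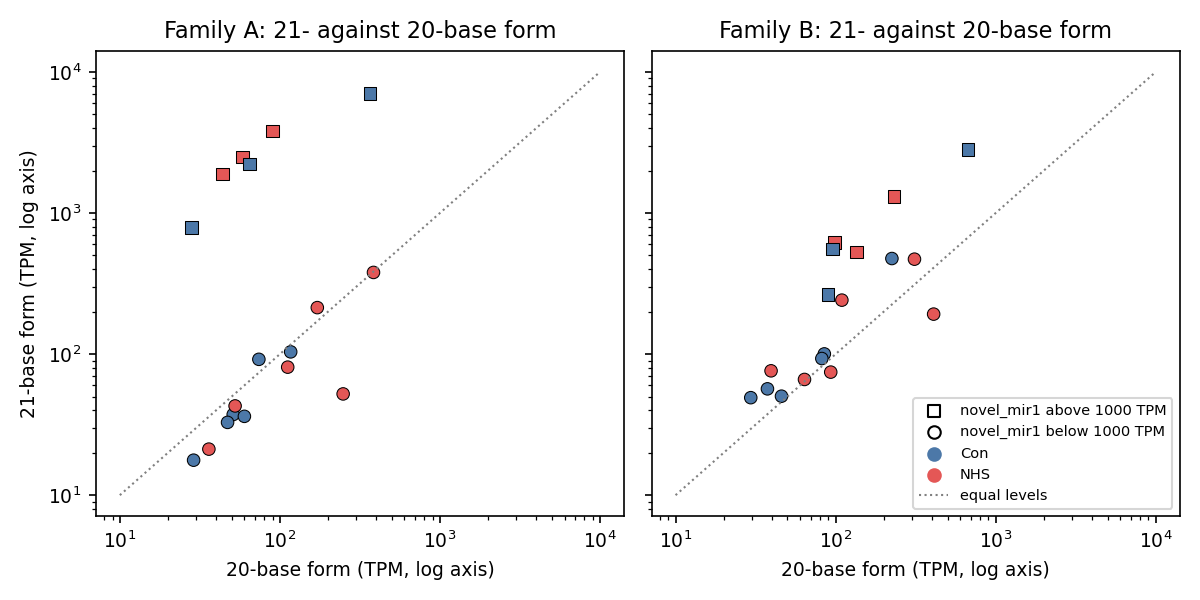
Level of the 21-base form against the 20-base form of family A (left) and family B (right) in each of the 18 libraries, in TPM on log axes. Squares are the 6 libraries with more than 1000 TPM of novel_mir1, circles the other 12, blue is Con, red is NHS, and the dotted line marks equal levels. In family A the squares lie 19.3 to 43.1 times above it, and the circles lie between 0.21 and 1.25 times its level.

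novel_pir83653 had the highest mean of all members, 1076 TPM. In F0 Con it stood at 37.3, 791.2 and 32.8 TPM and in F0 NHS at 213.5, 379.1 and 1890 TPM. In F1 Con it stood at 103.7, 36.2 and 17.7 TPM and in F1 NHS at 80.8, 2501 and 42.9 TPM. In F2 Con it stood at 2220, 7042 and 91.8 TPM and in F2 NHS at 3820, 52.2 and 21.2 TPM. The groups overlapped in every generation, and the 6 values from 791.2 TPM upward were those of the 6 libraries named above. novel_pir83653 led each of those 6 libraries. Of the other 12, novel_pir249668 led 6, novel_pir83648 and novel_pir83654 led 2 each, novel_pir249670 led F2 NHS replicate 2 and the 17-base novel_pir83652 led F1 NHS replicate 1.

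novel_pir83652 was found in F1 NHS replicate 1 only, at 121.9 TPM. That library stands apart, because it alone lists sequences under 18 bases. It held 1703 ERV1 sequences shorter than 18 bases, down to 11 bases, with 34.8% of its ERV1 reads, and the other 17 libraries held none. Its 4312 ERV1 sequences of 18 bases or longer were still more than the 3290 of the highest F1 Con library.

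novel_pir83672, the 19-base form of family A that has lost the last CA, had 4.27, 20.7 and 5.02 TPM in F0 Con and 89.7, 97.1 and 83.7 TPM in F0 NHS. Its F0 groups did not overlap, yet the model across all predicted piRNAs did not call it (log2 fold change 3.03 with SE 1.93, edgeR quasi-likelihood adjusted p = 0.988). novel_pir249668 had 49.1, 264.9 and 56.7 TPM in F0 Con and 241.2, 470.7 and 530.1 TPM in F0 NHS, with overlap. The 18-base forms novel_pir83654 and novel_pir221212, which begin 3 bases inside the longest forms, were highest in F0 NHS replicates 1 and 2 in family A (271.0 and 178.8 TPM). In family B they were highest in F2 Con replicate 2, at 160.7 TPM.

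The model across all predicted piRNAs (edgeR quasi-likelihood test, Benjamini-Hochberg adjustment) could test few members. It kept 937 sequences with at least 1 read per 1000000 in at least 3 libraries, 96 of them ERV1, and 67 of those 96 belong to the 6 families. At an adjusted p under 0.05 it called 0 ERV1 members in F0 and 0 in F1 (0% of the 937 sequences in each), 1 in F2 (0.107% of the 937), 0 for the mean NHS effect over generations (0%) and 0 among the Con groups (0%). At an unadjusted p under 0.05 it counted 3 of the 96 in F0, where 4.59% of all tested sequences passed, 3 in F1 (6.72% of all) and 5 in F2 (10.2% of all). The mean effect gave 3 (6.62% of all) and the Con groups 7 (14% of all). These shares of ERV1 lay below those of all sequences tested. DESeq2 called 0 in F0 (1.39% of all), 0 in F1 (0.427%), 1 in F2 (4.59%), 1 for the mean effect (2.45%) and 3 among the Con groups (6.08%).

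Single members' fold changes need not follow the summed level, which a few sequences carry. In F0, 82 of the 96 tested members had a log2 fold change above 0, with a median of 1.58, where 54.4% of all tested sequences were above 0 and their median was 0.15. In F1, 42 of the 96 were above 0 (49.5% of all), with medians of -0.16 for ERV1 and -0.02 for all, although the summed ERV1 level was 2155 TPM in F1 NHS and 808.6 TPM in F1 Con. In F2, 33 of the 96 were above 0 (58.5% of all), with medians of -0.70 and 0.41. Most of these members are overlapping forms of the same few sequences, so their number does not count independent changes. The members with the smallest p in F0 were novel_pir173316 (log2 fold change 4.29 with SE 1.80) and novel_pir295436 (2.79 with SE 1.25), and edgeR gave both an adjusted p of 0.986. They hold the 12 bases that define families C and E. In F1 they were novel_pir95038 (5.06 with SE 2.23) and novel_pir457938 (6.62 with SE 3.05), with an edgeR adjusted p of 0.675. In F2 novel_pir21523 followed the called member, at 5.33 with SE 2.28 (edgeR adjusted p = 0.417). None of these 5 passed the threshold.

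The member called in F2 was novel_pir295434, the 21-base form of family E, placed at chr12:20782914-20784507 (minus strand, no annotated gene). It is shown with 3 forms that overlap it:
novel_pir295434: caaatcccggacgagcccCCA
novel_pir291762: aaatcccggacgagcccCCA
novel_pir295435: caaatcccggacgagccccc
novel_pir295436: caaatcccggacgagcccc

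novel_pir295434 had 0 reads in all 3 F2 Con libraries and 1.5, 5.31 and 4.46 TPM in F2 NHS. A count of 0 allows up to 0.115 to 0.166 TPM in the F2 Con libraries, taking 3 reads per library as the limit. The F2 NHS mean of 3.76 TPM (SD 2.0) was at least 27.8-fold above the mean of these limits. The edgeR test of F2 NHS against F2 Con, which does not use these limits, gave an adjusted p of 0.0294. It had reads in all 15 other libraries, at 0.374 to 9.35 TPM. The 2 forms next to it were present in F2 Con. novel_pir291762, 1 base shorter at the 5′ end, had 2.51, 7.25 and 13.9 TPM there, and novel_pir295435, 1 base shorter at the 3′ end, had 1.63, 3.82 and 1.53 TPM. Family E as a whole had 26.4 ± 17.5 TPM in F2 Con and 28.2 ± 17.1 TPM in F2 NHS (SD, n = 3 each), a difference far inside the spread. The call was lost with the replicate block (adjusted p = 0.0729), with only the 6 F2 libraries in the fit (adjusted p = 0.642), with no filter (adjusted p = 0.987) and when 9 of the 18 libraries were left out in turn (adjusted p 0.0192 to 0.209 over the 18). Each F2 Con library is among these 9, as are F2 NHS replicates 2 and 3, F0 Con replicate 1, F0 NHS replicate 2 and F1 Con replicates 1 and 3.

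ERV1 reads were compared in length and first base with those of ERVK and LINE-1. Their mean length was 20.61 ± 0.698 bases over the 18 libraries, against 21.47 ± 1.27 in ERVK (paired permutation test by sign flips, 100000 resamples, adjusted p = 0.00315, shorter in 14 of 18 libraries) and 21.20 ± 1.26 in LINE-1 (adjusted p = 0.0129, shorter in 16 of 18). With each distinct sequence counted once, the mean length was 22.1 bases in ERV1, 21.95 in ERVK and 21.55 in LINE-1. By that count ERV1 was longer than ERVK in 16 of 18 libraries and longer than LINE-1 in all 18, without a test. Reads beginning with T were 16.4% ± 11.6 of ERV1 reads, 24.3% ± 9.08 of ERVK reads and 30.1% ± 4.47 of LINE-1 reads. The paired difference was -7.92 points against ERVK (permutation p = 0.00156, adjusted p = 0.00312, lower in 15 of 18 libraries) and -13.8 points against LINE-1 (permutation p = 0.00014, adjusted p = 0.00042, lower in 17 of 18). In the other 2 classes of long terminal repeat elements, not tested here, reads beginning with T were 26% ± 11.4 (ERVL) and 35.9% ± 14.5 (ERVL-MaLR). The ERV1 share was lower than that of ERVL in 10 of 18 libraries and higher in 8, and it was lower than that of ERVL-MaLR in all 18. The top sequence of a library held 25.6% of its ERV1 reads on average (7.39% to 59.6%), 20.3 points more than in LINE-1 (permutation, adjusted p = 0.00036, higher in 17 of 18) and 10.3 points more than in ERVK (permutation, adjusted p = 0.0785, higher in 10 of 18).

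At the length of mature piRNAs the mean first-base difference from ERVK and LINE-1 had the other sign. Among reads of 24 to 32 bases, ERV1 began with T more often than ERVK by 19.2 points (permutation p = 2e-05, the smallest these resamples can give, adjusted p = 0.00012) and more often than LINE-1 by 8.68 points (permutation p = 0.0383, adjusted p = 0.046). Against ERVK it was higher in all 18 libraries. Against LINE-1 it was higher in each of the 12 libraries low in novel_mir1, by 12.7 to 26.4 points, and lower in each of the 6 high ones, with differences of -27.8 to -5.63 points. Against ERVL, not tested, ERV1 was higher in all 12 low libraries and lower in all 6 high ones. Against ERVL-MaLR, not tested either, ERV1 was lower in 10 of the 12 low libraries and higher in all 6 high ones. Without sequences that end in CCA, the difference over all lengths was -2.1 points against ERVK (permutation p = 0.237) and -8.24 points against LINE-1 (permutation p = 0.0371, adjusted p = 0.0445). With each distinct sequence counted once it was -2.85 points against ERVK (adjusted p = 0.00028) and -0.204 points against LINE-1 (adjusted p = 0.847).

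Among the members themselves the share beginning with T rose with length up to 30 bases, from 26.7% of the 4833 members of 18 bases to 34.4% at 24 bases, 45.8% at 28, 55.3% at 29 and 60.3% of the 569 members of 30 bases, and was lower again among the 146 members of 31 bases (50.7%) and the 39 of 32 bases (23.1%). The 13687 members of 24 to 32 bases began with T in 40.2% of cases, and the 24941 members of 18 to 23 bases in 29.6%. In ping-pong amplification, the loop in which piRNAs cut transcripts and so make further piRNAs, partners overlap by 10 bases at their 5′ ends and the second partner carries A at position 10. A at position 10 was found in 26.2% of the 24- to 32-base members and 23.3% of those of 18 to 23 bases. Within the same repeat copy, 124 pairs of 24- to 32-base members on opposite strands overlapped by exactly 10 bases at their 5′ ends, and 92 to 140 pairs overlapped by 11 to 20 bases, so that 10 bases was not the most frequent overlap.

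**Figure D3:**
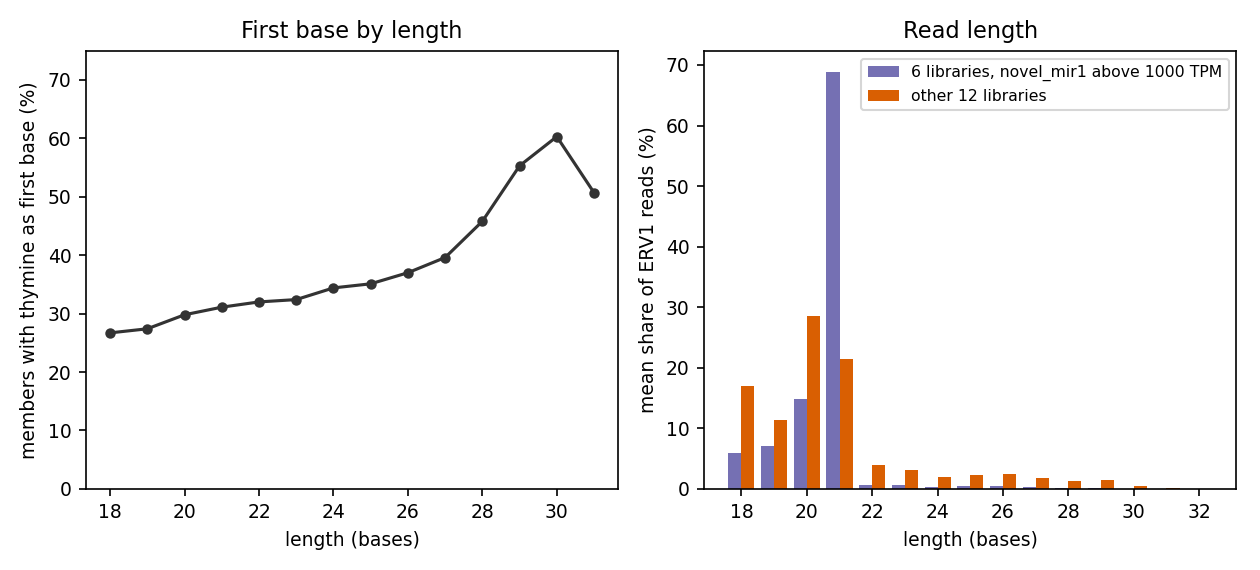
Left: percentage of ERV1 members that begin with T at each length from 18 to 31 bases. Right: mean share of ERV1 reads at each length in the 6 libraries with more than 1000 TPM of novel_mir1 and in the other 12. The left curve climbs from 26.7% at 18 bases to 60.3% at 30 and is at 50.7% at 31, and the reads of the 6 libraries gather at 21 bases, with a mean share of 68.9%.

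Reads of piRNA length were a small part of the class, at 32.2 to 219.8 TPM and 0.427% to 27.7% of a library's ERV1 reads. Their first base followed the same 2 sets of libraries as the families. T began 19.7% to 26.6% of the 24- to 32-base ERV1 reads in the 6 libraries high in novel_mir1 and 46.7% to 72.0% in the other 12, with no overlap. For ERVK the ranges were 16.4% to 24% and 10.6% to 56.0%, and for LINE-1 they were 25.9% to 48.7% and 32% to 51.9%, both with overlap. Over all predicted piRNAs the ranges were 6.06% to 26.3% and 25.9% to 62.6%, which overlap by little, so a split of this kind was not particular to ERV1. By distinct sequence of any length, ERVK also split without overlap, at 23.13% to 28.47% and 38.52% to 48.98%. By group, reads of 24 to 32 bases beginning with T had 25.1 ± 17.3 TPM in F0 Con and 25.6 ± 11.8 TPM in F0 NHS. They had 78.6 ± 27.5 and 65.9 ± 28.6 TPM in F1, and 50.9 ± 62.0 and 77.0 ± 46.1 TPM in F2 (Con and NHS, SD, n = 3 each). These differences between Con and NHS were smaller than the spread within groups.

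The most abundant members of 24 to 32 bases that begin with T, chosen after their values were seen and with the first base in capitals, are shown to set them beside the CCA families, and some share a 5′ end at several lengths:
novel_pir457926: Tgagttataaaagtcttgtcttcctgc
novel_pir457925: Tgagttataaaagtcttgtcttcctgcgt
novel_pir457927: Tgagttataaaagtcttgtcttcct
novel_pir436568: Taagcaggaatgagcctagtttgt
novel_pir187193: Tgaagatgagcttggggtgacagt
novel_pir189055: Ttatattccaaaaggttagagagagaggg
novel_pir189040: Tatattccaaaaggttagagagagagggc

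novel_pir457926 was found in 17 of the 18 libraries at up to 3.05 TPM, and it shares its 5′ end with the 29-base novel_pir457925 and the 25-base novel_pir457927. All 3 were placed at the ERV1 copy at chr17:27338984-27339429 (copy on the plus strand), in an intron of the processed transcript Gm10505. The 29-base form was highest in F1 Con replicate 1 (4.73 TPM) and F2 Con replicate 3 (3.18 TPM), and the 25-base form in F1 NHS replicate 2 (3.49 TPM). novel_pir436568, at chr17:27292126-27292683 (plus strand, no annotated gene), reached at most 0.0836 TPM in the 6 libraries high in novel_mir1 and 0.604 to 3.41 TPM in the other 12. novel_pir187193, at chr10:75861313-75861777 (plus strand, no annotated gene), was at 0 in those 6 libraries and at 0.255 to 1.39 TPM in the 12. novel_pir189055 and novel_pir189040, shifted by 1 base at chr10:62685281-62685362 (minus strand, in an intron of Stox1, which encodes a DNA-binding protein), were highest in F2 NHS replicate 3, at 7.92 and 4.77 TPM.

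The 40459 members were placed at 7412 ERV1 copies, of which 4235 carried 1 member. The members are not spread over the whole genome, because the catalogue is numbered by chromosome name and the covered numbers run through chromosomes 10 to 19, 1, 2, 3 and the start of 4. Chromosome 10 held 36.2% of them and chromosome 11 held 11.4%. Since a sequence that matches many copies is given 1 place, these shares describe the catalogue and not where the RNA arose. The numbers run over all classes up to 605324, and the first ERV1 members on chromosomes 11 and 12 carry 206387 and 263542. Chromosome 10 therefore also holds many entries of other classes. The 10 copies with the most members held 21% of all members, and 50 copies held 100 or more. The first 2 were chr11:6006408-6007343, with 1404 members, inside an intron of Camk2b, and chr10:47452733-47453590, with 1400 members and no annotated gene.

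These 50 copies differed in the kind of sequence they held. The share beginning with T among their 24- to 32-base members ran from 7.41% to 73.7%. In 21 copies it was over 45%, a limit set after the values were seen, and there the members had a median length of 25 bases (21 to 26 over the copies). In the other 29 copies the median length was 22 bases (20 to 24). The highest share, 73.7%, was at chr2:92565637-92565968, and 3 further copies over 45% lie near it on chromosome 2, between positions 92564476 and 92586827. chr17:27338984-27339429 had 60.8% and chr10:75861313-75861777 had 59.6%. The copies with the most members were lower, at 29.2% for chr11:6006408-6007343 and 29.3% for chr10:47452733-47453590. Of the 21 copies over 45%, 19 had a higher median level in the 12 libraries low in novel_mir1 than in the 6 high ones, and of the 29 others 5 did. The share of a copy and its levels come from reads of these same libraries, and the first base itself differed between the 2 sets. The 2 properties are therefore not independent, and these counts are description only.

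**Figure D4:**
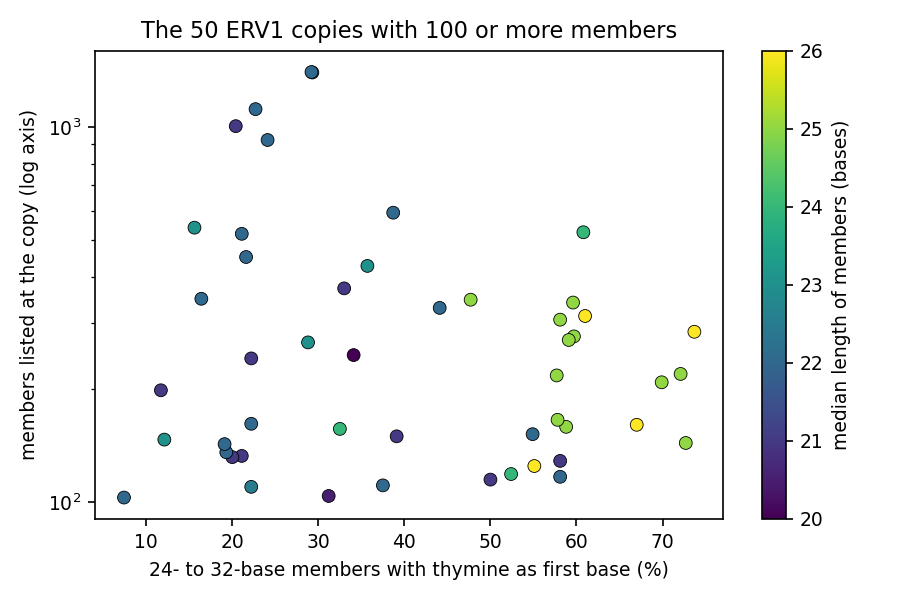
Each point is 1 of the 50 ERV1 copies with 100 or more members. The horizontal axis gives the percentage of its 24- to 32-base members that begin with T, the vertical axis the number of members on a log axis, and the colour the median member length in bases. The copies with over 1000 members lie at or below 29.3%, and the copies with median lengths of 25 bases or more lie from 47.7% to 73.7%.

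The number of distinct ERV1 sequences changed in opposite directions in F0 and in the later generations. F0 Con had 3560, 3390 and 3520 sequences and F0 NHS had 3246, 3216 and 2832. F1 Con had 3290, 2750 and 2694 and F1 NHS had 6015, 5010 and 5018. F2 Con had 2721, 2009 and 2229 and F2 NHS had 3089, 4963 and 5535. In each generation the groups did not overlap, lower in NHS in F0 and higher in NHS in F1 and F2. The means were 3098 ± 231 and 3490 ± 88.9 in F0, 5348 ± 578 and 2911 ± 329 in F1, and 4529 ± 1280 and 2320 ± 365 in F2 (NHS and Con, SD, n = 3 each, exact permutation p = 0.1 in each generation).

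Pooled over generations, NHS had 1418 more distinct ERV1 sequences (exact permutation p = 0.01, adjusted p = 0.06), which does not pass 0.05 after adjustment over the 6 measures. The 6 groups differed among themselves (permutation p = 0.00135, adjusted p = 0.0081). The rise was not particular to ERV1. Over all predicted piRNAs the ratio of NHS to Con in distinct sequences was 0.88 in F0, 2.0 in F1 and 2.11 in F2, against 0.89, 1.84 and 1.95 for ERV1. The ERV1 share of distinct sequences ranged from 6.47% to 9.05%, with a pooled difference of -0.347 points (exact permutation p = 0.285). Counting only sequences with at least 2 reads in a library, the pooled difference fell to 224.3 (exact permutation p = 0.0862) and the F0 difference turned to 179.0 sequences more in NHS. Among sequences of 24 to 32 bases the F0 difference was also higher in NHS, by 154.0. At the depth of the shallowest library the differences were -548.6, 1999 and 1466 sequences in F0, F1 and F2. Within the 12 libraries low in novel_mir1 they were -309.0, 2605 and 3020, where F2 Con keeps only replicate 3.

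**Figure D5:**
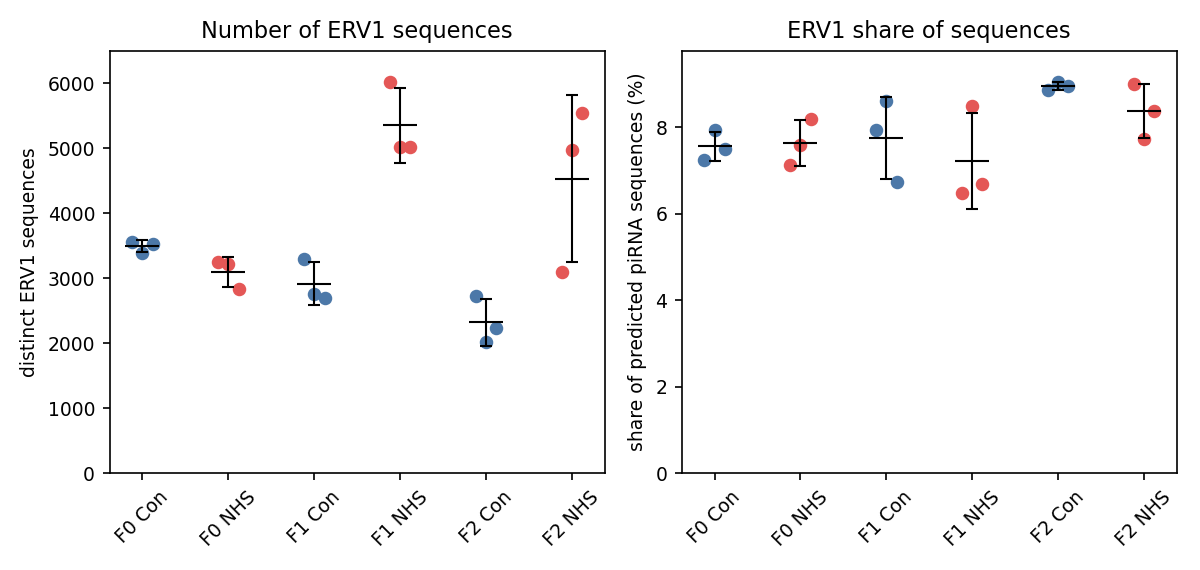
Left: number of distinct ERV1 sequences in each library by group. Right: ERV1 share of all distinct predicted piRNA sequences in percent. Points are libraries (Con in blue, NHS in red), the bar is the mean and the whiskers are 1 SD (n = 3). The left groups do not overlap within any generation, while the right values all lie between 6.47% and 9.05%.

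The remaining measures did not separate NHS from Con. The pooled difference was 2.47 points in the share of the top sequence (exact permutation p = 0.796), -0.226 bases in mean read length (p = 0.5 by the same exact permutation) and 0.228 points in reads beginning with T (exact permutation p = 0.963), each with an adjusted p of 0.963. A p that misses the threshold does not show that the groups are alike.

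Most members were too rare to compare. In all, 30809 (76.1%) were found in 1 library, 21560 had a single read over all 18 libraries and 46 were found in all 18. Library totals ran from 17224404 to 29430555 reads, and a library's ERV1 reads numbered from 14717 to 275795. A share of ERV1 reads in 1 library therefore has a 95% Wilson interval of at most 0.808 points on either side, and a share of 24- to 32-base reads one of at most 3.74 points. These intervals cover counting error only. As a check of the label sperm, 5 germ cell microRNAs of the miR-34 and miR-449 families summed to 3983 to 21777 TPM in the 16 libraries that list them. Markers of other cell types were present too, at 5723 to 162787 TPM for 2 of smooth muscle, 4294 to 77008 TPM for 2 of red blood cells, 3340 to 25252 TPM for 4 of epithelium and 175.8 to 2283 TPM for 4 of leukocytes. None of these markers was at 0, and their part in the ERV1 values was not tested. In such bulk libraries, fewer cells of a type and less RNA per cell cannot be told apart.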

How the data were processed

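Small RNA libraries from mouse sperm were analysed from 18 lists of sequences with read counts and TPM, deposited by the authors in 1 table. Per the file headers, each list gives an identifier, a count and a TPM value. The deposited TPM equals the count over the library total times 1000000, within 0.01 in all 18 libraries. Of the lists, 13 are whole, 16 are whole for predicted piRNAs, and all 18 are whole for the numbers used. The totals of the 5 lists that are not whole were computed from their count and TPM columns. Positions, repeat classes and sequences come from the deposited catalogue of 801902 predicted piRNAs, and starts are counted from 1, as checked on transcripts. The submitters' processing notes name mm10, and the sources used here do not give the aligner or the prediction tools.

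Groups came from the labels. Measures per library were compared with permutation tests (scipy 1.17.1), members with edgeR 4.0.16 (quasi-likelihood, TMM, 1 read per 1000000 in 3 libraries) and DESeq2 1.42.0, in R 4.3.3, with Benjamini-Hochberg adjustment over all sequences tested. The tests were tried on simulated data. Library totals ran from 17224404 to 29430555 reads. Named members are the 10 with the highest mean, the top of each library, the 2 with the smallest p per contrast and those called, and the other sequences printed were picked after their values were seen. Members with no reads were in no test. The members, lists and tests were chosen with earlier results of these data known. Of the deposited predicted microRNAs only the place of novel_mir1 was used.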

Additional observations from a re-analysis of the deposited data

Results flagged for a closer look

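The difference in distinct ERV1 sequences between NHS and Con had one sign in F0 and the other in F1 and F2. The F0 effect (NHS minus Con) minus the F1 effect was -2828.3 sequences, and the F0 effect minus the F2 effect was -2601.3 sequences. In each case the exact permutation of labels within the generations gave p = 0.005, the smallest that its 400 relabellings allow. The adjusted p was 0.045 over 18 such comparisons. Exchanging labels assumes no NHS effect in either generation, so this p does not test whether the effects are equal. The F0 libraries of NHS all lay below those of Con, and the F1 and F2 libraries of NHS all lay above. A joint test over the 3 generations gave a permutation p of 0.0663 (adjusted p = 0.398), and with at least 2 reads per sequence the F0 effect was 179.0, of the same sign as the F1 effect of 120.7 and the F2 effect of 373.3. All predicted piRNAs together showed ratios of 0.88, 2.0 and 2.11 in the 3 generations.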

How the results depend on the processing

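Alternatives limited to sequences of 18 bases or longer, to sequences not ending in CCA, or to the libraries low or high in novel_mir1 were chosen after seeing the data. Among the 12 libraries low in novel_mir1, F2 Con keeps only replicate 3. The pooled difference in distinct sequences kept its direction in all settings run. It passed the threshold only at 24 to 32 bases (561.2 sequences, exact permutation, adjusted p = 0.048) and without F0 NHS replicate 3 or F2 NHS replicate 1 (1250.2 to 1657.9 with a library left out). The TPM difference turned to 208.7 with all numbers, 37.6 without the highest member, 22.1 at 24 to 32 bases, 759.3 in the 12 libraries low in novel_mir1 and 0.556 on the log2(TPM + 1) scale, and ran from -1020.4 to 1258.5 with a library left out, above 0 without F0 Con replicate 2, F1 NHS replicate 3, F2 Con replicate 2 or F2 NHS replicates 2 or 3. The share turned to -0.184 points at 24 to 32 bases and -0.347 for distinct sequences (0.949 to 9.16 with a library left out). The share of the top sequence turned to -0.319 at 24 to 32 bases and -3.93 in the 12 libraries (-3.14 to 6.37, below 0 without F0 NHS replicate 3, F1 NHS replicate 2 or F2 NHS replicate 1). Mean length turned to 0.143 at 24 to 32 bases and 0.178 in the 6 high libraries (-0.418 to -0.0274). Reads beginning with T turned to -2.74 with all numbers, -0.554 at 24 to 32 bases, -1.0 at 18 bases or longer, -4.95 without CCA ends, -1.65 in the 6 high libraries and -2.14 with each sequence once (-2.6 to 3.37). None of the TPM, share, top sequence, length or first-base settings passed the threshold, and the cause was not tested.

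Against ERVK, the difference in reads beginning with T was 19.2 at 24 to 32 bases, -2.1 without CCA ends and -4.96 in the 12 low libraries (permutation, adjusted p = 0.0756), and -8.81 to -7.21 with a library left out. Against LINE-1 it was 8.68 at 24 to 32 bases and -0.204 with each sequence once (-15.2 to -12.6). With no filter, which tests 40253 ERV1 members, edgeR called 3 in F0, 5 in F1, 3 for the mean effect and 3 among Con groups (9, 17, 7 and 16 of all 601270 sequences). In F2 edgeR lost the call of novel_pir295434 and called 1 other (5 of all 601270 sequences). In the 12 libraries low in novel_mir1 it called 1 in F1, 6 in F2, 3 for the mean and 10 among Con groups, of 73 ERV1 members tested (1.37%, 8.22%, 4.11% and 13.7%, against 0.975%, 5.01%, 4.18% and 9.19% of all 718 sequences). With all numbers in whole lists it called 0 in F2 and 3 among Con groups (2.08%, against 0.808% of all), with only the F2 libraries 0, and DESeq2 called 1 for the mean and 3 among Con groups. Leaving out a library gave 0 to 1 in F2 and among Con groups, and 0 elsewhere. The replicate block gave 0 in F2 and, for distinct sequences, 1417.9 with p = 0.0508 by exact permutation. Same-numbered libraries had correlations of -0.65 to 0.58 between their deviations from the group means. With 3 libraries per group, these values cannot decide whether the numbers pair the libraries. The filter of 1 read per 1000000 in 3 libraries left 96 of 40459 members to test, and 21560 had a single read in all.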
